A study of Mus musculus with 8 samples.

Results

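The 10 genes described here encode the mannosidases II and the N-acetylglucosaminyltransferases that build branched N-glycans in the Golgi, with *Mgat4d*, a relative whose product inhibits MGAT1. They are the rows of the expression table whose gene symbol is *Mgat1*, *Mgat2*, *Mgat3*, *Mgat4a*, *Mgat4b*, *Mgat4d*, *Mgat5*, *Mgat5b*, *Man2a1* or *Man2a2*, which makes 10 of 55357 genes. Each of the 10 reached a TPM of 1 in some library, and all were among the 20187 genes tested. RNA-seq was performed on germ cell preparations from 8 male pups at 15 days after birth, with 1 library per mouse. The 4 control males were *Mgat2*[F/F], carrying floxed *Mgat2* on both alleles and no Cre. The 4 conditional knockout (cKO) males were *Mgat2*[F/F]:*Stra8*-iCre and carried the same floxed alleles with 1 copy of the *Stra8*-iCre transgene, which is expressed in spermatogonia. Both genotypes are described as C57BL/6, the line having been bred onto that background. Cells other than germ cells keep intact floxed alleles in this model. The question was whether transcripts of *Mgat2* were reduced and whether transcripts of the other branching enzymes were raised in its place.

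An N-glycan reaches the medial Golgi with a core of mannose residues. MGAT1 adds the first N-acetylglucosamine (GlcNAc), mannosidase II (MAN2A1 or MAN2A2) then removes further mannose residues, and MGAT2 adds the second GlcNAc, which turns a hybrid N-glycan into a complex one. MGAT4A, MGAT4B and MGAT5 add further branches, MGAT3 adds a bisecting GlcNAc that is not extended, and MGAT5B, a relative of MGAT5, is best known from the brain, where it acts on O-mannose glycans. In the testis, complex N-glycans on germ cells take part in contacts with Sertoli cells.

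*Mgat2* (ENSMUSG00000043998) spans positions 69230931 to 69233544 of chromosome 12 (GRCm39, forward strand) and has a single exon of 2614 bp. Its promoter is shown because another gene starts next to it on the other strand. The RefSeq start site of *Mgat2* is at 69230932, and that of *Rpl36al*, which encodes a ribosomal protein and runs the opposite way, is at 69230841. The capitals mark the 90 bases between both start sites in the window chr12:69230682-69230981 on the forward strand. *Mgat4d* (ENSMUSG00000035057) spans positions 84075100 to 84108949 of chromosome 8, forward strand, and its canonical transcript has 11 exons. Its promoter, chr8:84074851-84075150 on the forward strand, is shown because its transcript varied more between libraries than that of any other of the 10 genes. The capitals there mark matches to letters from the binding motifs of factors known from meiotic and haploid germ cells.
Mgat2 promoter: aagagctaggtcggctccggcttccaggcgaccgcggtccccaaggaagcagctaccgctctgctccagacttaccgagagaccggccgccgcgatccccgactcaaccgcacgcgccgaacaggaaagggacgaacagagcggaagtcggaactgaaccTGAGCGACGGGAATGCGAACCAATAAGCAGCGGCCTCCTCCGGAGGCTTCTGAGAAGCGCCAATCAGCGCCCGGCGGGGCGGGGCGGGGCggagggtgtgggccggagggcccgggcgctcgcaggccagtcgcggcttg
Mgat4d promoter: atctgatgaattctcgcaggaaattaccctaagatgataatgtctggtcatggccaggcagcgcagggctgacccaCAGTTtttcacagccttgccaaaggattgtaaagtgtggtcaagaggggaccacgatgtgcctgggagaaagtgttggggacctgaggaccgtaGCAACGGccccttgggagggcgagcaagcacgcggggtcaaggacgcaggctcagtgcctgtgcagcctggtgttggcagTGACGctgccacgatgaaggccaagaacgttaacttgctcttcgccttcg
Both windows hold 250 bases before the RefSeq start site and 50 bases from it on, were taken from a RefSeq table of the GRCm38.p6 build, and were placed on GRCm39 by an exact match. The table held 7 of the 10 genes and no entry for *Mgat3*, *Mgat4b* and *Man2a2*. The *Mgat2* window has a GC content of 69% and the *Mgat4d* window one of 56.3%. Motifs were searched on both strands of the *Mgat4d* window after it had been read: the MYB core AACNG, the cAMP response element core TGACG, and the RFX core GCAAC. The MYB core matched at bases 77 to 81, read on the reverse strand, and at bases 173 to 177. The RFX core matched at bases 171 to 175 and overlaps the latter MYB match, and TGACG matched at bases 251 to 255, from the start site on. Of 32851 mouse promoters of the same length, 80.3% hold AACNG, 35.2% hold GCAAC and 20.8% hold TGACG, so that the first in particular is found in most promoters. Among the 7 promoters of the group, TGACG matched in *Mgat4d* alone, the RFX core also in *Mgat1*, *Mgat4a* and *Mgat5b*, and the MYB core in all but *Man2a1*, with 4 matches in *Mgat2* and 2 in *Mgat4d*. A match is a run of letters and no evidence of binding.

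The 8 libraries held between 12584726 and 15907505 expected counts, and a floor of 3 counts equalled 0.189 to 0.238 CPM (counts scaled to library size), for counting error only. Levels of a gene across libraries are given here in CPM normalized by edgeR's TMM method, and levels of different genes are compared only in TPM, which accounts for gene length. Markers of the labelled cell type were present. Summed over 8 genes, spermatogonia markers stood at 860 to 1036 TPM in control and 996 to 1209 TPM in cKO libraries, and early meiotic prophase markers at 871 to 1497 and 905 to 1198 TPM. The 8 spermatid markers summed to 19.6 to 57.2 TPM in control and 16.4 to 26.2 TPM in cKO libraries. Of them, 2, *Tnp2* and *Prm1*, were at 0 in every library, and *Acrv1* and *Prm2* stayed at or under 0.34 TPM. *Dbil5* ran from 5.33 to 44.3 TPM and *Spaca1* from 5.56 to 9.64 TPM. Of the 4 that were tested, 3 had log2 fold changes below 0, and *Tnp1*, at 0 to 6.06 TPM, had one of 1.71. Markers of Sertoli cells were abundant as well, the 8 of them summing to 4668 to 5701 TPM in control and 4769 to 5727 TPM in cKO libraries, most of it from *Clu* (3754 to 4590 TPM), a gene that other cells also transcribe. *Sox9*, a transcription factor that defines Sertoli cells, stood at 48.2 to 61.8 TPM over the 8 libraries. After *Clu*, the highest Sertoli cell marker was *Cldn11* at 437.5 to 570.5 TPM, followed by *Wt1* at 179.5 to 260.7 TPM. The lowest was *Fshr* at 16.4 to 22.4 TPM. Leydig cell markers summed to 35.9 to 89.7 TPM. Pachytene spermatocyte markers differed most between libraries: their 8 genes summed to 2290.5, 756, 1015 and 637 TPM in control replicates 1 to 4 and to 794, 343, 350 and 295 TPM in cKO replicates 1 to 4. Replicate 1 was the highest library of both genotypes in these markers, so results that rest on these libraries are given with and without them. In such bulk preparations, fewer cells of a type and less RNA per cell cannot be told apart.

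Transcripts of *Mgat2* averaged 48.3% of the control level in cKO preparations, but the genotypes overlapped and the difference did not pass the test across all genes. Its level was 69.8, 31.8, 64.3 and 59.8 CPM in control replicates 1 to 4. It was 35.3, 20.1, 37.6 and 16.0 CPM in cKO replicates 1 to 4, from 226 to 539 counts. Control replicate 2 was the low library of its group and lay below cKO replicates 1 and 3, while the other controls lay above every cKO library. The log2 fold change of cKO over control was -1.05 (95% interval -1.89 to -0.21, standard error 0.36), with p = 0.021 before and p = 0.47 after adjustment by edgeR, and an exact permutation test of its log2 CPM gave p = 0.0857 (two-sided). By DESeq2 the log2 fold change of *Mgat2* was -1.06 with an adjusted p of 0.0242, which passed the threshold of 0.05. In TPM, *Mgat2* held rank 4 of the 10 genes in control (median 42.1 TPM) and rank 6 in cKO (median 18.2 TPM). The lowest cKO library, replicate 4, still held 10.9 TPM. Sertoli cell markers, from cells in which the alleles are not deleted, moved little with genotype (median log2 fold change 0.06 over 8 genes), and the part of such cells in the remaining *Mgat2* reads was not tested. The extent of the floxed segment is not given in the sources used here, so remaining reads were not placed inside or outside of it.

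*Rpl36al*, the gene on the opposite strand, was lower in every cKO library than in every control library. In GENCODE vM39 it runs on chromosome 12 from 69228230 to 69231234, and 304 bp of its exons overlap the *Mgat2* exon, which is 11.6% of the *Mgat2* exon. By the RefSeq start sites given above, the genes do not overlap. The authors counted with another Ensembl release, in which the overlap was not checked. Because the libraries were not stranded, reads in such an overlap cannot be assigned by strand. The counts of either gene are uncertain by as much of it as that release holds. The level of *Rpl36al* was 76.9, 33.7, 51.3 and 61.5 CPM in control and 31.4, 15.3, 30.7 and 16.7 CPM in cKO replicates 1 to 4. Both genes thus had their lowest control in replicate 2 and their lowest cKO libraries in replicates 2 and 4. The log2 fold change of *Rpl36al* was -1.25 (95% interval -2.04 to -0.45, adjusted p = 0.40 from edgeR), and the share of all tested genes with every cKO library below every control was 3.03%. Their CPM ratio, which depends on the lengths of both genes and is read only for its variation between libraries, was 1.10, 1.06, 0.798 and 1.03 in control and 0.891, 0.761, 0.816 and 1.04 in cKO libraries. *Gm49383*, a predicted protein-coding gene on the reverse strand from 69229608 to 69243878, shares 58 bp (2.2%) with the *Mgat2* exon. Its counts were 11, 0, 0 and 0 in control and 67, 44, 10 and 8 in cKO replicates 1 to 4. Those are low counts, the genotypes overlapped, and the difference did not pass the test (adjusted p = 0.47 from edgeR).

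**Figure D1:**
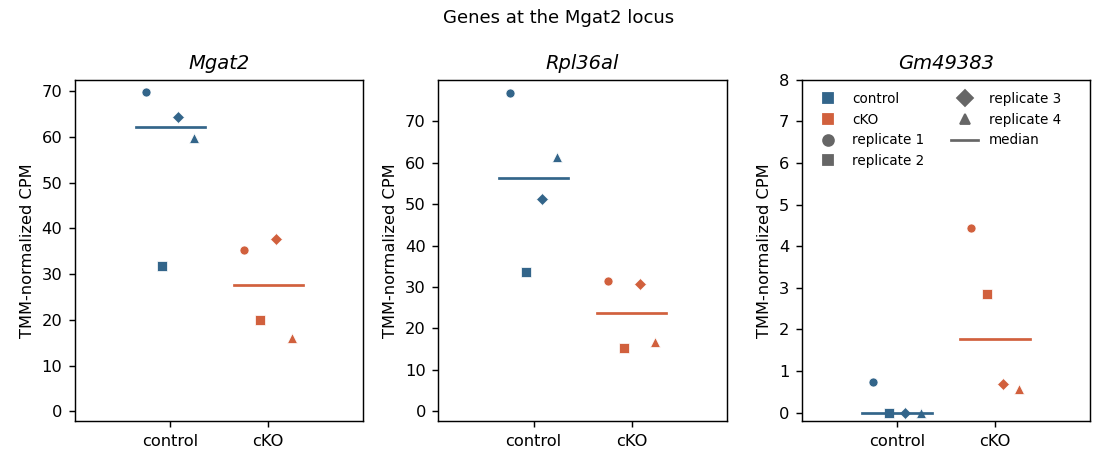
TMM-normalized CPM (linear axes from 0) of *Mgat2*, *Rpl36al* and *Gm49383* in the 4 control and 4 cKO libraries, one point per library with the shape giving the replicate number and a line at the median. *Rpl36al* was at 33.7 CPM or more in every control and at 31.4 CPM or less in every cKO library, while control replicate 2 of *Mgat2* lay among the cKO libraries, and *Gm49383* reached 4.45 CPM in cKO replicate 1.

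By likeness of pattern, the tested genes closest to *Mgat2* over the 8 libraries were *4930509H03Rik*, *Rpl36al* and *Exoc7*, with Pearson's r of 0.971, 0.968 and 0.956 on log2(CPM + 0.5). These coefficients describe 8 libraries that share their genotype difference, and carry no test. *4930509H03Rik* was at 0.213 to 0.703 CPM, close to the floor. *Exoc7*, a gene of the exocyst complex that tethers secretory vesicles, ran only from 50.3 to 68.5 CPM. Of these genes, *Rpl36al* is thus the one that lay well above the floor and also varied about as widely as *Mgat2*. *Gm49383* had an r of -0.41 to *Mgat2*.

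None of the 10 genes was called by edgeR (adjusted p under 0.05), against 8 of 20187 genes tested, or 0.0396%, all of them lower in cKO. At an unadjusted p under 0.05 there was 1 of the 10, *Mgat2*, against 8.9% of all genes. DESeq2 called 1 of the 10, again *Mgat2*, against 304 genes or 1.51%, and limma-trend on log2(TPM + 1) called none of the 10 and 0 genes in all. In 10 of 10 genes the control and cKO libraries overlapped, whereas in 5.5% of all tested genes they did not. For the 8 genes other than *Mgat2* and *Mgat4d*, the log2 fold changes lay between -0.15 and 0.19 with a median of 0.01, beside 0.01 over all tested genes. The sign of the values nearest 0, those of *Mgat1*, *Mgat4b*, *Mgat5b* and *Man2a2*, changed when single libraries were left out, for *Man2a2* without cKO replicate 1 (0.07). The sum of these 8 genes was 374.6 ± 43.8 TPM (SD, n = 4) in control and 378.8 ± 34.1 TPM (SD, n = 4) in cKO preparations. That difference was far smaller than the spread within either genotype. A p that misses the threshold does not show equal levels. The upper end of each 95% interval of the edgeR fit, not adjusted for the number of genes, is therefore given below as a fold. These folds describe the whole preparation, RNA of Sertoli and other somatic cells included. They set no bound on a change within germ cells alone, which was not tested. Other fits moved some estimates: by limma-trend on log2(TPM + 1), *Mgat1* was at 0.19 and *Mgat4a* at 0.31.

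**Figure D2:**
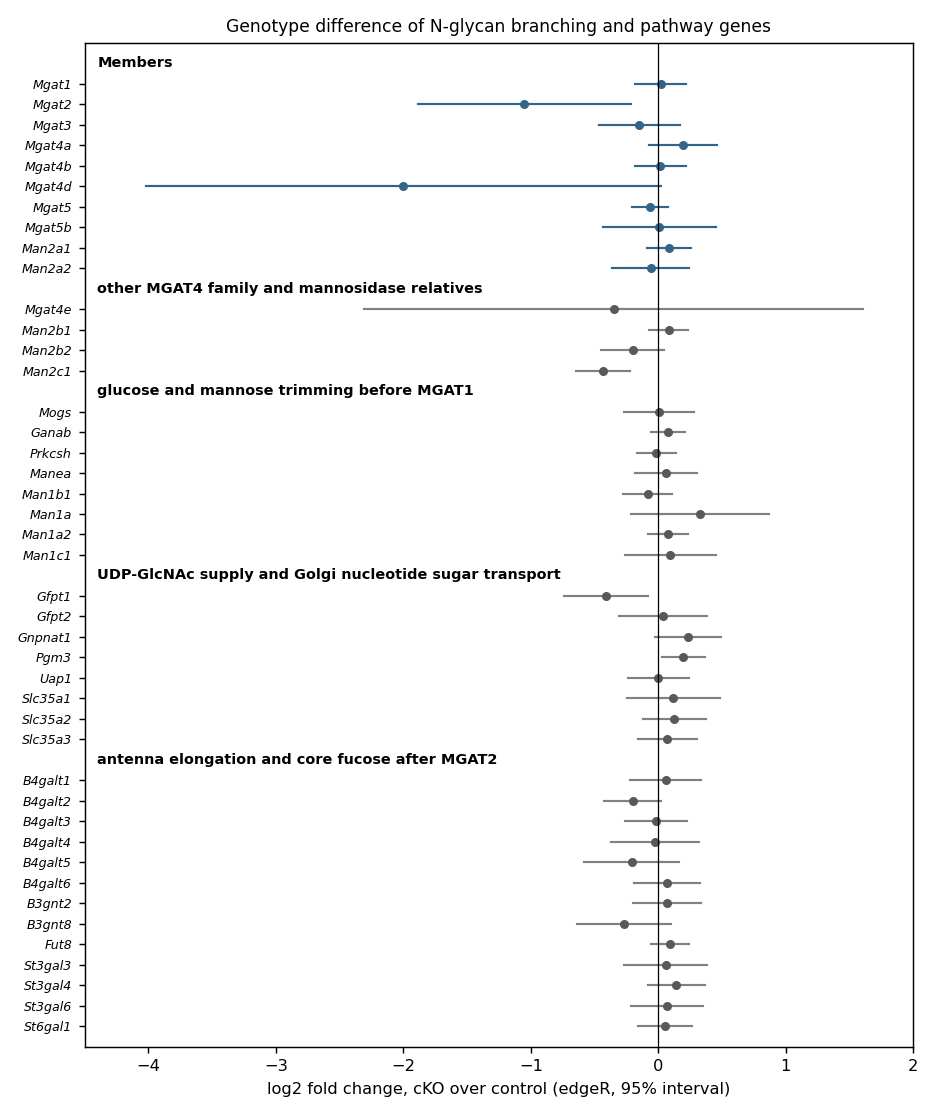
Log2 fold change of cKO over control with its 95% interval from edgeR for the 10 genes (blue) and for 33 tested genes of 4 pathway lists (grey). The interval of *Mgat2* ran from -1.89 to -0.21 and that of *Mgat4d* from -4.02 to 0.02, while the points of the other 8 blue genes lay between -0.15 and 0.19.

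The enzymes that act before MGAT2 showed no difference between genotypes beyond the spread of the libraries. *Mgat1* (ENSMUSG00000020346, chromosome 11, 49134997 to 49153857, forward strand), which starts complex and hybrid N-glycan synthesis, was at 35.4, 39.9, 33.9 and 38.3 CPM in control. In cKO it was at 37.0, 39.2, 36.9 and 36.1 CPM, all within the control range. Its log2 fold change was 0.02 (95% interval -0.18 to 0.22, adjusted p = 0.98 from edgeR), with an upper end of 1.16-fold. *Man2a1* (ENSMUSG00000024085, chromosome 17, 64907705 to 65062105, forward strand) encodes the mannosidase II found in most tissues. Its level was 228, 264, 277 and 285 CPM in control and 262, 278, 292 and 287 CPM in cKO. Control replicate 1 was the lowest library, and the log2 fold change was 0.09 (95% interval -0.09 to 0.26, adjusted p = 0.78 from edgeR, upper end 1.197-fold). *Man2a2* (ENSMUSG00000038886, chromosome 7, 79998842 to 80021242, reverse strand), whose product is the mannosidase II that male germ cells are known to need, was at 244, 305, 273 and 288 CPM in control and 193, 294, 269 and 311 CPM in cKO. The lowest and the highest library were both cKO, replicates 1 and 4. The log2 fold change of *Man2a2* was -0.06 (95% interval -0.36 to 0.24, adjusted p = 0.93 from edgeR, upper end 1.18-fold). It shares 769 bp of exon (7.3%) with *Hddc3* on the other strand, which had only 23 to 47 counts.

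The transferases that act after MGAT2 likewise did not pass the test. *Mgat4b* (ENSMUSG00000036620, chromosome 11, 50101717 to 50125942, forward strand), which encodes the widely expressed form of the MGAT4 branching enzymes, was at 150.2, 185, 145 and 182 CPM in control. In cKO it was at 152, 177, 174 and 166 CPM, again inside the control range. Its log2 fold change was 0.02 (95% interval -0.19 to 0.22, adjusted p = 0.98 from edgeR), an upper end of 1.16-fold. *Mgat4b* shares 141 bp of exon (4.4%) with *Sqstm1*, whose product is an autophagy receptor and which had a fold change of 0.12 on the log2 scale (adjusted p = 0.71 from edgeR). *Mgat4a* (ENSMUSG00000026110, chromosome 1, 37478421 to 37580127, reverse strand), the MGAT4 form of more restricted expression, was at 17.6, 18.6, 20.2 and 21.2 CPM in control and 23.0, 24.2, 18.6 and 22.7 CPM in cKO. It had the highest point estimate of the 10 genes, and 3 of 4 cKO libraries lay above every control, with cKO replicate 3 inside the control range. The log2 fold change of *Mgat4a* was 0.19 (95% interval -0.08 to 0.46, adjusted p = 0.67 from edgeR), with an upper end of 1.37-fold. *Mgat5* (ENSMUSG00000036155, chromosome 1, 127132752 to 127416073, forward strand), whose product makes the branch that is most readily extended by polylactosamine, was at 149.6, 137, 130.1 and 141 CPM in control and 137, 129.5, 135 and 132 CPM in cKO. This was the narrowest interval of the group, with a log2 fold change of -0.06 (95% interval -0.21 to 0.08, adjusted p = 0.79 from edgeR, upper end 1.06-fold). *Mgat5* shares 1249 bp of exon (11.7%) with *Tmem163* on the other strand, which had 0 to 8 counts.

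*Mgat5b* and *Mgat3* were transcribed at low levels. *Mgat5b* (ENSMUSG00000043857, chromosome 11, 116809621 to 116878243, forward strand) was at 7.94, 13.6, 11.9 and 9.45 CPM in control and 8.30, 11.97, 12.56 and 10.4 CPM in cKO, from 117 to 210 counts. The groups covered nearly the same range, and the log2 fold change was 0.01 (95% interval -0.43 to 0.45, adjusted p = 1.00 from edgeR), again with an upper end of 1.37-fold. *Mgat3* (ENSMUSG00000042428, chromosome 15, 80049871 to 80099720, forward strand) was at 11.7, 14.5, 11.4 and 14.3 CPM in control and 10.7, 11.9, 12.4 and 11.8 CPM in cKO. Control replicates 2 and 4 were above every cKO library and control replicates 1 and 3 among them. The log2 fold change of *Mgat3* was -0.15 (95% interval -0.46 to 0.17, adjusted p = 0.79 from edgeR), an upper end of 1.12-fold.

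*Mgat4d*, whose product binds and inhibits MGAT1 and which is known from spermatocytes and spermatids, had the largest difference of the 10 genes and the widest spread. Its level was 25.9, 8.10, 10.5 and 5.78 CPM in control and 8.56, 1.42, 1.61 and 0.922 CPM in cKO replicates 1 to 4, from 382 down to 13 counts. In cKO replicates 2 to 4 it lay below every control, and cKO replicate 1 lay above control replicates 2 and 4. On the log2 scale the difference was -2.001 (95% interval -4.02 to 0.02, standard error 0.85), 4.00-fold lower in cKO, with an adjusted p = 0.56 from edgeR, and an exact permutation test gave p = 0.0857 (two-sided). With the replicate number as a block, a pairing that the labels do not state, edgeR gave -2.24 (adjusted p = 1.75e-08). That block fit called 1464 of 20187 genes. Single libraries decided the size of the 4.00-fold difference. Without control replicate 1 the difference was 2.58-fold, without cKO replicate 1 it was 9.48-fold, and without both it was 6.16-fold (adjusted p = 7.39e-08 from edgeR). In that last fit, 755 of 19577 genes or 3.86% were called lower in cKO. Both replicate 1 libraries had been set apart for their pachytene markers and were also the highest of their genotypes in *Mgat4d*. Leaving them out narrows the spread of *Mgat4d* itself, so the p of that fit is no independent test of it. With both replicate 1 libraries left out, the groups of *Mgat4d* no longer overlapped, which held for 10.6% of all tested genes in the same direction.

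The order of the 8 libraries in *Mgat4d* was the order of the libraries in summed pachytene markers, in 8 of 8 ranks. These markers, among them *Piwil1*, which encodes a piRNA-binding protein of spermatocytes, had log2 fold changes below 0 in 8 of 8 genes with a median of -1.45, against 0.01 over all genes. Their adjusted p lay between 0.44 and 0.77 from edgeR, and *Piwil1* was the 1 marker with every cKO library below every control. Of all tested genes, 3.03% had that order. Per 1000 TPM of pachytene markers, *Mgat4d* stood at 14.6, 13.7, 13.0 and 11.5 TPM in control and at 13.4, 4.75, 5.72 and 3.86 TPM in cKO replicates 1 to 4. On that scale cKO replicate 1 was within the control range and the other cKO libraries were below it. The log2 fold changes of the single markers ran from -2.05 (*Piwil1*) to -0.14 (*Mybl1*), beside -2.001 for *Mgat4d*. The scaled level of *Mgat4d* thus depends on which markers are summed. The part of pachytene cells in the *Mgat4d* difference was not tested. Genes with the pattern most like *Mgat4d* over the 8 libraries were *Stpg4*, *Tdrd6* and *Dnah17*, with Pearson's r of 0.999, 0.997 and 0.996, which share with *Mgat4d* both the genotype difference and the high replicate 1 libraries. *Tdrd6*, whose product belongs to the chromatoid body of germ cells, ran from 246 CPM in control replicate 1 to 4.04 CPM in cKO replicate 4.

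**Figure D3:**
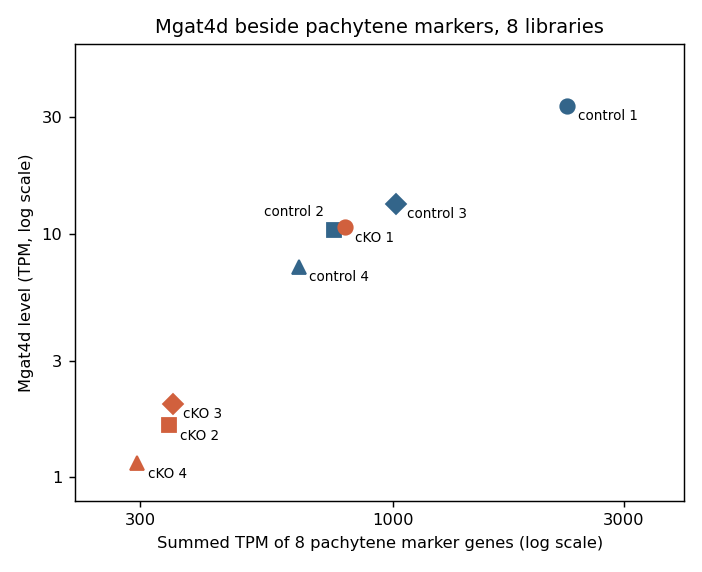
*Mgat4d* TPM against the summed TPM of 8 pachytene spermatocyte marker genes, both on log axes, one labelled point per library (blue, control; orange, cKO). Control replicate 1 is highest on both axes (33.4 and 2290.5 TPM), cKO replicate 1 (10.6 and 794 TPM) lies among the controls, and cKO replicates 2 to 4 are lowest at 1.14 to 2.00 TPM of *Mgat4d*.

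Between the genes, levels per length spread widely. In control preparations the medians were 140.1 TPM for *Mgat4b*, 112 for *Man2a2*, 65.4 for *Man2a1*, 42.1 for *Mgat2*, 28.9 for *Mgat5*, 23.6 for *Mgat1*, 11.8 for *Mgat4d*, 6.03 for *Mgat4a*, 5.61 for *Mgat5b* and 4.64 for *Mgat3*, in TPM throughout. Neighbours did not overlap from *Mgat4b* down to *Mgat2*, and neither did *Mgat4d* and *Mgat4a*. The ranges of *Mgat2*, *Mgat5*, *Mgat1* and *Mgat4d* each overlapped the next, and so did those of *Mgat4a*, *Mgat5b* and *Mgat3*. In cKO preparations the order was *Mgat4b* (135 TPM), *Man2a2* (93.9), *Man2a1* (68.6), *Mgat5* (26.4), *Mgat1* (26.2), *Mgat2* (18.2), *Mgat4a* (7.16), *Mgat5b* (5.04), *Mgat3* (4.24) and *Mgat4d* (1.82), medians again in TPM. The changes of place were thus those of *Mgat2*, which fell in rank below *Mgat5* and *Mgat1*, and *Mgat4d*, which was last by its median. There, *Mgat4b* overlapped *Man2a2*, and *Mgat2* overlapped *Mgat1* but not *Mgat4a*. *Mgat4d* ran from 1.14 to 10.6 TPM in cKO and overlapped *Mgat3*, and its cKO replicate 1 lay above every cKO library of *Mgat4a*.

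**Figure D4:**
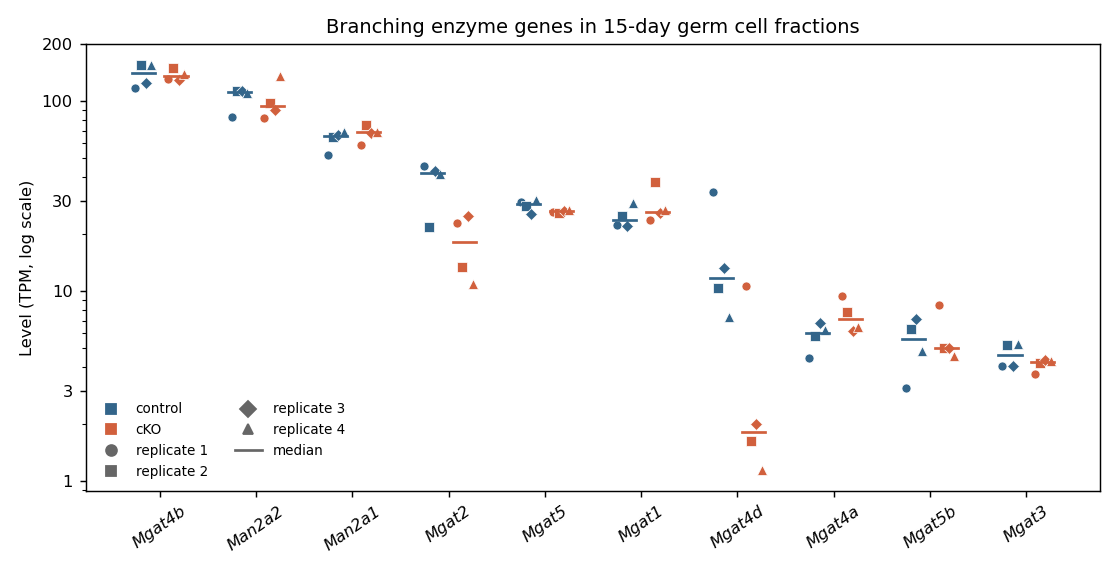
TPM (log axis) of the 10 genes in each library, ordered by the control median, with blue for control, orange for cKO, marker shape for the replicate number and a line at the median. Only *Mgat2* (42.1 and 18.2 TPM) and *Mgat4d* (11.8 and 1.82 TPM) had medians that differed by more than 2-fold between genotypes.

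TPM also moves with the transcript lengths that RSEM assigns, and the counts do not. The length implied by counts and TPM, relative to the single-exon *Mgat2*, was stable for *Mgat3* and *Mgat5*, at 1.01 and 1.05 times between the lowest and highest library. For *Mgat5b* it ran from 0.638 in cKO replicate 1 to 1.68 in control replicate 1. Accordingly *Mgat5b* in cKO replicate 1 had the highest TPM of its 8 libraries (8.48) with one of the lowest CPM (8.30). For *Mgat1* the implied length was lowest in cKO replicate 2, at 0.701, where its 37.4 TPM stood out beside 39.2 CPM. *Mgat4a* ran from 1.58 to 2.59 and *Man2a2* from 1.55 to 2.01. For these genes, TPM and CPM need not move together between libraries.

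Ratios within a library were compared for 5 pairs of enzymes, in TPM, with two-sided exact permutation tests over 70 assignments of libraries, of which the smallest possible p is 0.0286. *Mgat2* per *Mgat1*, the enzymes that add successive GlcNAc residues, was 2.05, 0.868, 1.95 and 1.42 in control and 0.966, 0.359, 0.967 and 0.410 in cKO. Again only control replicate 2 lay among the cKO libraries (difference of the mean log2 ratio -1.29, p = 0.0857, exact permutation test, 0.19 adjusted over the 5 ratios). *Mgat4d* per *Mgat1*, inhibitor over target, was 1.51, 0.414, 0.604 and 0.251 in control and 0.447, 0.0436, 0.0778 and 0.0428 in cKO, so that *Mgat4d* exceeded *Mgat1* in control replicate 1 alone (difference -2.63 on the log2 scale, p = 0.0857, exact permutation test, 0.19 adjusted). This difference was -2.15 on the log2 scale without control replicate 1 and -3.40 without cKO replicate 1. *Mgat4a* per *Mgat4b* was 0.0377, 0.0372, 0.0547 and 0.0404 in control and 0.0721, 0.0522, 0.0475 and 0.0469 in cKO (difference 0.36 on the log2 scale, p = 0.114, exact permutation test, 0.19 adjusted). From expected counts in place of TPM the difference of this ratio was 0.16 on the log2 scale (0.429 adjusted). In every library *Mgat4a* was thus a small fraction of *Mgat4b*. *Mgat5* per *Mgat5b* ran from 3.598 to 9.56 in control and from 3.10 to 5.87 in cKO (difference -0.24 on the log2 scale, p = 0.543, exact permutation test). *Man2a1* per *Man2a2* was 0.631, 0.573, 0.587 and 0.623 in control and 0.728, 0.768, 0.760 and 0.505 in cKO. Here 3 of 4 cKO libraries lay above all controls and cKO replicate 4 lay below them (difference 0.17 on the log2 scale, p = 0.257, exact permutation test). None of the 5 ratios separated the genotypes in TPM. From expected counts, the log2 difference was -1.1 for *Mgat2* per *Mgat1* and -2.39 for *Mgat4d* per *Mgat1*. It was -0.0865 for *Mgat5* per *Mgat5b* and 0.167 for *Man2a1* per *Man2a2*.

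**Figure D5:**
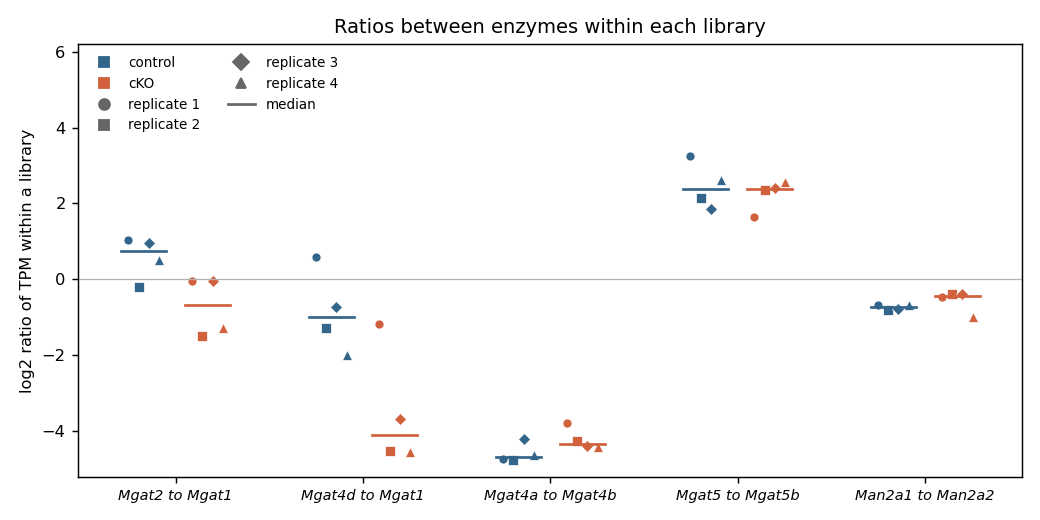
Log2 ratio of TPM within each library for 5 pairs of enzymes (blue, control; orange, cKO; shapes, replicate numbers; line, median). The mean of *Mgat2* to *Mgat1* was 0.58 in control and -0.72 in cKO on this scale, and the genotypes overlapped in each of the 5 pairs.

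The other genes of the pathway were read from 4 lists with 36 genes, of which 33 were tested. EdgeR called 0 of the 33, with 3 at an unadjusted p under 0.05 where 8.9% of all genes were, while DESeq2 called 1, *Man2c1*, where it called 1.51% of all genes. These shares are near the background. Their median log2 fold change was 0.06, beside 0.01 over all tested genes. Among the 8 genes for trimming of glucose and mannose before MGAT1, the median log2 fold change was 0.07, with the largest value, 0.33, for *Man1a*. Among the 8 genes for the supply of UDP-GlcNAc, the donor that all MGAT enzymes use, and for nucleotide sugar transport, the median was 0.09. In this list *Pgm3*, which encodes an enzyme of UDP-GlcNAc synthesis, was at 46.5, 48.1, 47.5 and 46.1 CPM in control and 54.4, 52.7, 56.96 and 51.4 CPM in cKO. Every cKO library was higher, as in 2.47% of all genes, but the log2 fold change of 0.20 (95% interval 0.03 to 0.36) did not pass the test (adjusted p = 0.50 from edgeR). *Gfpt1*, which encodes the enzyme of the entry step of this synthesis and was named after its values were seen, averaged 171 CPM (SD 37.0, n = 4) in control against 129 CPM (SD 15.4, n = 4) in cKO, a log2 fold change of -0.41 (adjusted p = 0.46 from edgeR) with overlapping groups. Of 13 tested genes for elongation and core fucose after MGAT2, log2 fold changes lay between -0.27 and 0.14 with a median of 0.06, and in none did the genotypes separate. *Fut8*, whose product adds the core fucose, was at 94.6 ± 3.93 CPM in control and 101 ± 4.90 CPM in cKO (SD, n = 4 each), a log2 fold change of 0.09 (adjusted p = 0.71 from edgeR).

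Of the relatives, *Man2c1*, which encodes a mannosidase of the cytosol that acts on free glycans and not in the Golgi, was lower in every cKO library. That held for 3.03% of all tested genes. *Man2c1* was at 56.4, 50.3, 56.9 and 50.4 CPM in control and 34.7, 41.8, 43.7 and 38.3 CPM in cKO. Its log2 fold change was -0.43 (95% interval -0.65 to -0.22, adjusted p = 0.23 from edgeR, and 8.06e-04 before adjustment). With all 8 libraries, DESeq2 called *Man2c1*, as it did 1.51% of all genes. *Man2c1* and *Gfpt1* passed the threshold in edgeR when both replicate 1 libraries were left out, where 3.86% of 19577 genes were called lower in cKO. The fits with the replicate number as a block also called both, among 1464 of 20187 genes by edgeR and 1223 by DESeq2. The lysosomal mannosidase genes *Man2b1* and *Man2b2* had log2 fold changes of 0.08 and -0.20 (adjusted p = 0.76 and 0.63 from edgeR). *Mgat4e* was near the floor, at 0 to 1.33 CPM, and *Mgat4c* and *Mgat4f* stayed under 1 TPM in every library and were not tested.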

How the data were processed

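RNA-seq covered germ cell preparations of 8 mice, 4 of each genotype, grouped by the sample titles. According to the deposited descriptions, testes were digested with collagenase, DNase and trypsin, polyadenylated RNA was made into non-stranded libraries and sequenced with paired ends, and the submitters' processing notes name STAR 2.7.9a, RSEM 1.3.3, DESeq2 1.38.3 and the mm39 build. The authors deposited RSEM expected counts for 55357 genes, with no filter or scaling between samples, and 6.4% of the values were not whole, so they were rounded. The authors deposited TPM values for the same genes, scaled within each library for length and depth. The number of sample columns outside the study was 0. Depth was 12584726 to 15907505 expected counts per library.

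The 20187 genes that reached a TPM of 1 in any library were fitted by genotype alone with edgeR 4.0.16 (TMM, robust quasi-likelihood F-test), and p-values were adjusted by the Benjamini-Hochberg method over all of them, with a threshold of 0.05. Fold changes are cKO over control. Single genes and ratios were compared with exact permutation tests over 70 assignments of 4 and 4 libraries. Since nothing but separate mice is stated for the replicates, p-values measure the spread between these mice. Positions came from GENCODE vM39 on GRCm39, the build of the files. Alternatives were DESeq2 1.42.0, limma 3.58.1 (log2(TPM + 1)), other size factors, other filters, the replicate number as a block, and leaving out libraries. Tests were tried on simulated counts. R 4.3.3, Python 3.11.15, numpy 2.4.6, scipy 1.17.1 and pandas 2.3.3 were used.

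The 10 genes, the pathway and the marker lists were chosen with earlier results of these data known. Genes named are the 10 genes, pathway genes that were called or whose genotypes did not overlap, the 3 tested genes with the highest Pearson's r to *Mgat2* and to *Mgat4d*, and genes annotated over exons of the 10. *Gfpt1*, *Man1a*, *Fut8*, *Man2b1*, *Man2b2*, *Mgat4c*, *Mgat4e*, *Mgat4f* and single markers were named outside this rule, after their values were seen. Protein sequences were not used here.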

Additional observations from a re-analysis of the deposited data

Results flagged for a closer look

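Within groups of 4 libraries, the highest or lowest value was set against the others by Dixon's ratio. Of 48 groups examined, 6 were past its 95% critical value, where chance gives about 1 in 20 for independent groups. These groups are not independent, since *Mgat4d* and the summed pachytene markers ranked the libraries alike. In *Mgat4d*, cKO replicate 1 was far above the other cKO libraries, at 8.56 CPM. The same library was high in summed pachytene markers, at 794 TPM, and low in summed Sertoli cell markers, at 4769 TPM. Control replicate 1 was the 1 control with reads of *Gm49383*, at 0.747 CPM, and was low in summed markers of other testis somatic cells, at 337 TPM. With the other controls at 0, the ratio for *Gm49383* was 1 by construction. In the log2 ratio of *Man2a1* to *Man2a2*, cKO replicate 4 was far below the other cKO libraries, at -0.99.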

How the results depend on the processing

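Every alternative set out for these results was run. Of the values recomputed, 225 kept their direction and side of the threshold or stayed near the value in the report. Of the rest, 24 moved, 5 passed the threshold only in the alternative and 17 changed sign. The ratio tests with 1 library left out have too few assignments for a p under 0.05. Their side of the threshold was thus fixed and shows no stability. The call of *Mgat2* depended on the tool: by DESeq2 its log2 fold change was -1.06 (adjusted p = 0.0242), and DESeq2 called 304 genes, 1 of the 10 genes and 1 pathway gene, against 8, 0 and 0 by edgeR. Calls among all genes were 17 with library totals, 35 with no expression filter, 0 with filterByExpr (1796 genes had an unadjusted p under 0.05 in the edgeR fit of the report) and 0 by limma-trend. Leaving out control 1 and cKO 1 together gave 845 calls in 19577 genes. Among them were 1 of the 10 genes (*Mgat4d*, -2.62) and 2 pathway genes. Leaving out each library in turn gave 0 to 32 calls among all genes and 0 among the 10 genes, with *Mgat2* between -1.25 and -0.86 (adjusted p 0.32 to 0.81) and *Mgat4d* between -3.25 and -1.37. The direction of values near 0 was not stable: *Mgat5b* was at -0.00028 by DESeq2 and -0.0071 without both replicate 1 libraries, *Mgat4b* at -0.00014 by limma-trend, and *Man2a2* at 0.012 without both replicate 1 libraries. With 1 library left out, *Mgat1* ran from -0.0204 to 0.0588, *Mgat4b* from -0.0426 to 0.0753, *Mgat5b* from -0.112 to 0.145, *Man2a2* from -0.145 to 0.0680 and the ratio of *Mgat5* to *Mgat5b* from -0.445 to 0.0254. The causes were not tested.

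Both genotypes carry replicate numbers 1 to 4, but no shared litter or day is stated for libraries of the same number. Deviations of same-numbered libraries from their genotype means correlated at 0.535, 0.145, 0.0389 and 0.197 for replicates 1 to 4. Libraries numbered 2 and 3 did not correlate best with their own number. Deviations from a mean of 4 libraries depend on each other, so these correlations cannot settle whether the numbers pair the samples. With the replicate number as a block, edgeR called 1464 of 20187 genes. Among them were 1 of the 10 genes (*Mgat4d*, -2.24, adjusted p = 1.75e-08 from edgeR) and 2 of 33 pathway genes. *Mgat2* was at -1.06 (adjusted p = 0.0633 from edgeR). DESeq2 with the replicate block called 1223 of 20187 genes, with 2 of 33 pathway genes among them. Of the 10 genes it called 2, *Mgat2* (-1.08, adjusted p = 0.00171 from DESeq2) and *Mgat4d* (-2.30).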

Other observations

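Markers of further testis cells were read beside the 10 genes. *Dcn*, which encodes a proteoglycan of connective tissue cells, was higher in every cKO library, at 21.2, 32.8, 32.6 and 41.1 TPM in control and 41.4, 42.1, 45.5 and 55.6 TPM in cKO replicates 1 to 4 (adjusted p = 0.38 from edgeR). It was the 1 marker of 8 in its list whose genotypes did not overlap. Of all tested genes, 2.47% had every cKO library above every control. In the same list 3 of the 8, *Pecam1*, *Vwf* and *Adgre1*, had log2 fold changes below 0. Summed over 8 genes, markers of these other somatic cells stood at 337 to 470 TPM in control and 338 to 606 TPM in cKO libraries. Markers of spermatogonia had log2 fold changes above 0 in 8 of 8 genes, with a median of 0.20, as did 10364 of 20187 tested genes in direction. The genotypes overlapped in each of these 8 markers, and edgeR called 0 of them.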
